A study of Drosophila melanogaster with 2 samples.

Results

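The mRNAs described here encode ME31B, a DEAD-box RNA helicase that holds maternal messages in a repressed state, and 8 proteins that share its messenger ribonucleoprotein (mRNP) particles. They are *me31B*, *tral*, *cup*, *Edc3*, *Patr-1*, *yps*, *exu*, *bel* and *Atx2*. The members were chosen by name, not by their values, and all 9 were found by these names among the 16863 genes of the expression table. The question was how much of the mRNA of the repressor complex was itself recovered with ME31B from the mature oocyte. Relative to the median gene, the mRNAs of *tral*, *cup* and *bel* were more than 2-fold lower in the ME31B immunoprecipitate than in the input. However, *bel* fell short of 2-fold on some other scales, and *CG34310*, annotated over the same span as *cup*, went the other way. The mRNA of *me31B* itself lay near the median gene, and that of *exu* had the highest relative recovery of the set, although its counting interval overlapped that of *Atx2*, which was higher when genes were centred within classes of input level. No sequences are printed, because the protein, promoter and transcript sequences of these genes were not used here.

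ME31B belongs to the DDX6 family, which is conserved from yeast to humans and binds mRNA without a strong sequence preference. In the *Drosophila* germline it forms particles with Trailer hitch (TRAL) and Cup, and in these particles maternal mRNAs are kept from initiating translation until egg activation or localization. Cup binds the cap-binding protein eIF4E and thereby blocks the scaffold eIF4G, whereas Edc3 and Patr-1 connect the helicase to the decapping machinery.

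RNA was sequenced from stage 14 oocytes, the last stage before egg activation, with 1 input library from the lysate and 1 library from the immunoprecipitate. Both come from flies labelled w1118;eGFP-Me31B, in which ME31B carries a green fluorescent tag, and no treatment is named for either. The study describes the bound RNA as recovered from stage 14 oocytes with GFP-tagged ME31B, and its methods name anti-GFP beads for this step, while the immunoprecipitate's own label names no antibody. The section on isolating the oocytes names w1118 flies without mention of the tag. RNA recovered with control IgG was not analysed here, and nonspecific recovery is therefore part of each value. The values are FPKM, fragments scaled to transcript length and to the number of mapped reads, so that levels can be compared between genes per length. Since there is 1 library of each kind, the spread between replicates is unknown, and differences are given as sizes without a test.

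As a check of the labelled cell type, all 7 oocyte marker mRNAs were detected, with input levels from 5.38 to 12458 FPKM. The 7 eggshell genes of follicle cells were detected as well, from 7.45 to 520 FPKM in the input and from 7.15 to 309 FPKM in the immunoprecipitate. None of the 7 was at 0. Their summed level was 864 FPKM in input RNA and 498 FPKM after immunoprecipitation. RNA of the surrounding follicle cells was thus present in both libraries, and its part in the results was not tested. On the centred log2 occupancy scale defined below, the median of these eggshell genes was −1.26. A shortfall of 2-fold or more was found for 5 of the 7, against 15.2% of all genes. For the 7 oocyte markers the median was −0.17, with 0 that low and 1 high by 2-fold or more, against 9.48% of all genes. Fewer cells of a type and less RNA per cell cannot be told apart in such bulk samples. The libraries were of similar depth by the rough read numbers given below. Among 1296 genes above 0 and below 1 FPKM in both, ratios of immunoprecipitate to input were densest at log2 values of −0.04, −1.03 and 0.96. Each of these was sought only within a preset window, so these values alone do not show similar depth. The product of FPKM and genomic span in kilobases piled up at 0.123 for input RNA and 0.116 for immunoprecipitated RNA in weakly expressed genes, and this was taken as a rough value of 1 read. It corresponds to about 8130000 and 8620000 reads. Because span includes introns, the read numbers derived from it are rough. From it, approximate numbers of reads per kilobase of mRNA were derived for each member, with exact (Clopper-Pearson) 95% intervals that cover counting error only, for 1 kilobase of mRNA.

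The 9 mRNAs differed widely in abundance. In the input, *exu* was the highest at 1014 FPKM and *me31B* followed at 979 FPKM, and for each of them 97.8% of the 6886 genes that exceeded 0.5 FPKM in both libraries were lower. *tral* stood at 443 FPKM, *yps* at 147 FPKM, *bel* at 92.7 FPKM and *cup* at 72.6 FPKM. The decapping-associated partners were scarcer, with *Patr-1* at 32.3 FPKM and *Edc3* at 26.3 FPKM, and *Atx2* was the lowest at 4.24 FPKM. The highest and lowest member thus differed 239-fold in the input, and 317-fold in the immunoprecipitate. *exu* and *me31B* together held 70.9% of the FPKM summed over the 9 mRNAs in the input and 86.4% in the immunoprecipitate. Over the same pair of libraries the share of *tral* went from 15.8% to 5.45%.

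**Figure D1:**
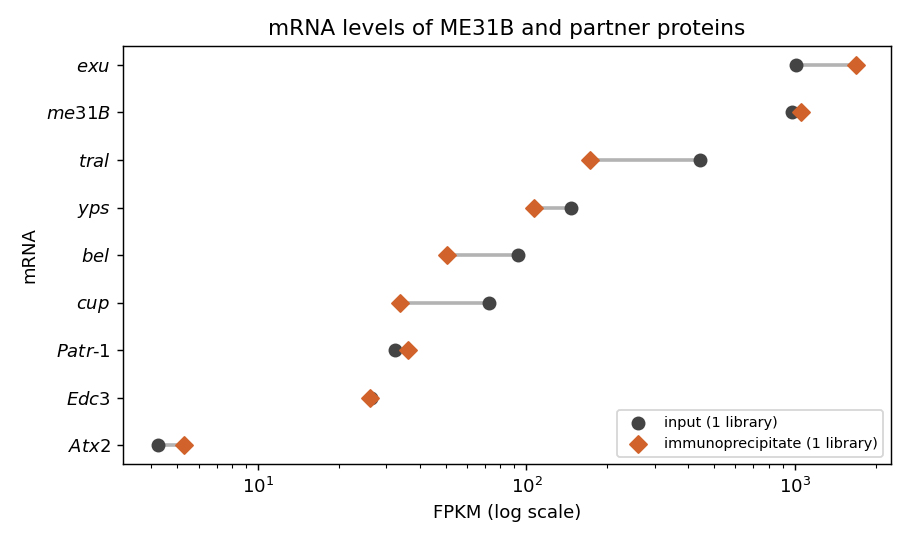
FPKM (log scale) of the 9 mRNAs in the input library (dark circles) and the ME31B immunoprecipitate library (orange diamonds), 1 library each. The diamonds of *exu* and *Atx2* lie to the right of their circles, those of *tral*, *cup*, *bel* and *yps* to the left, and those of *me31B*, *Patr-1* and *Edc3* close to them.

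Occupancy was taken as immunoprecipitate FPKM divided by input FPKM, and it was computed where both values exceeded 0.5 FPKM. All 9 members passed this limit. The median of the 6886 genes had a log2 occupancy of 0.33, and values below are given on the log2 scale relative to that median gene, where the quartiles of all genes were −0.62 and 0.55. Of the 9 members, 3 lay 2-fold or more below the median gene, as did 15.2% of all genes, and 0 lay 2-fold or more above it, as did 9.48% of all genes. Of all genes past 2-fold in either direction 38.4% were on the upper side, against 68.9% without centring. The median of the members was −0.34, and 8 of them lay below the median gene, the exception being *exu*. By definition, as many genes lie below the median gene as above it. Of the 8, *Atx2* and *Patr-1* had counting intervals that included the median gene. Relative to genes of like genomic span, 5 members lay below the median of their class and 4 above. On the uncentred scale, where equal FPKM is 0, 4 members were higher in the immunoprecipitate and 5 lower.

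*me31B* had 979 FPKM in input RNA and 1053 FPKM after immunoprecipitation. Its relative occupancy was −0.23 (counting interval −0.27 to −0.19), and 40.3% of all genes had a lower one. The mRNA of the immunoprecipitated protein thus differed by less than 2-fold from the median gene in either direction. It is also the gene that the strain label gives as tagged.

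TRAL is a protein with an LSm domain that bridges ME31B and Cup. Its mRNA had 443 FPKM in input RNA and 173 FPKM after immunoprecipitation. This was the lowest occupancy of the set, −1.69 relative to the median gene (counting interval −1.78 to −1.61), or 3.23-fold below it. Of all genes, 4.88% were lower. Whereas the input held 2.21 times as much *me31B* as *tral* mRNA per length, the immunoprecipitate held 6.10 times as much.

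Cup, the eIF4E-binding protein of the complex, is recruited by sequence-specific repressors such as Bruno and Smaug in the germline. The mRNA of *cup* had 72.6 FPKM in input RNA and 33.8 FPKM after immunoprecipitation. Its relative occupancy was −1.44 (counting interval −1.64 to −1.23), with 7.70% of all genes lower. The counting intervals of *cup* and *tral*, drawn for 1 kilobase of mRNA, overlapped. The value of *cup* is uncertain for another reason, since 4 annotated genes overlap its span of 11117 bases on chromosome 2L (6663664 to 6674780, Release 6). The end of *cort* shares 99 bases with it, while *Galt* and *Spn27A* lie within it.

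The remaining overlap was complete, as *CG34310* is annotated with the same start and end as *cup*. Its values went the other way, with 62.0 FPKM in input RNA and 152 FPKM after immunoprecipitation, a relative occupancy of 0.96. The ratio of *cup* to *CG34310* was therefore 1.17 in input RNA and 0.222 after immunoprecipitation. No source used here gives how the reads of this locus were divided between both genes, and the part of this division in the occupancy of *cup* was not tested. *cort* stood at −1.28, with 73.0 FPKM in input RNA and 37.9 FPKM after immunoprecipitation. *Spn27A*, at 0.10, lay near the median gene, and *Galt* was at or below 0.357 FPKM in both libraries.

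Edc3 (enhancer of decapping) competes with TRAL for the same surface of ME31B. Its mRNA had nearly equal values in the libraries, 26.3 FPKM in input RNA and 26.2 FPKM after immunoprecipitation. The relative occupancy was −0.34 (counting interval −0.62 to −0.07), which left 35.5% of all genes lower. A small nucleolar RNA gene within *Edc3* was listed at 0 in both libraries. Patr-1, the fly Pat1 protein, links ME31B to the LSm ring and promotes decapping. Its mRNA had 32.3 FPKM in input RNA and 36.1 FPKM after immunoprecipitation, a relative occupancy of −0.17 (counting interval −0.41 to 0.07). The mRNAs of both decapping partners thus lay close to that of *me31B*, and their counting intervals included its value.

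Exuperantia (Exu) acts in the localization of *bicoid* mRNA to the anterior of the oocyte, and Ypsilon schachtel (Yps), a Y-box protein with a cold-shock domain, binds RNA in the same complex. Their mRNAs lay apart. *exu* had 1014 FPKM in input RNA and 1685 FPKM after immunoprecipitation, a relative occupancy of 0.40 (counting interval 0.36 to 0.44), with 68.7% of all genes lower. *yps* had 147 FPKM in input RNA and 107 FPKM after immunoprecipitation, a relative occupancy of −0.79 (counting interval −0.92 to −0.67). The ratio of *exu* to *yps* mRNA was 6.90 in input RNA and 15.8 after immunoprecipitation. The span of *exu* shares 448 bases with *galla-1*, which had 43.9 FPKM in input RNA and 104 FPKM after immunoprecipitation.

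Belle (Bel) is a DEAD-box helicase of the DDX3 family that acts in translation and is needed for fertility, and Ataxin-2 (Atx2) binds the poly(A)-binding protein and regulates translation. *bel* mRNA had 92.7 FPKM in input RNA and 50.4 FPKM after immunoprecipitation. It was 2.32-fold below the median gene, at −1.21 (counting interval −1.39 to −1.04). On the uncentred scale its value was −0.88 and it no longer passed the 2-fold rule, and within its class of genomic span it was at −0.77. *Atx2* had 4.24 FPKM in input RNA and 5.31 FPKM after immunoprecipitation. Its relative occupancy was −0.01, but with about 34 and 46 reads per kilobase its counting interval ran from −0.68 to 0.68. On this interval for 1 kilobase of mRNA, *Atx2* could not be placed above or below the median gene.

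**Figure D2:**
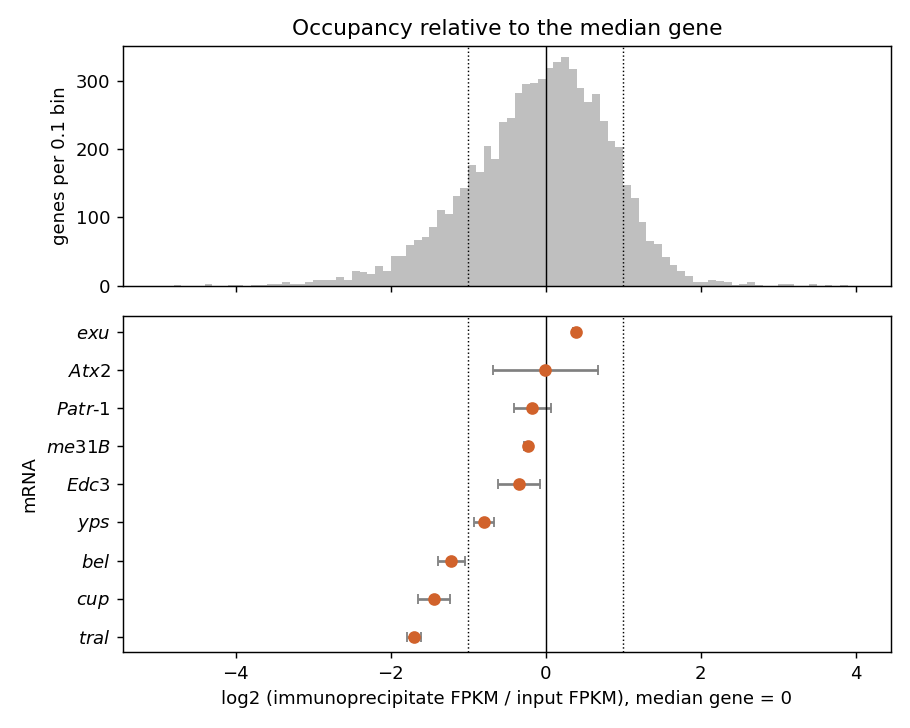
Upper panel, histogram of log2 occupancy relative to the median gene over the same 6886 genes. Lower panel, the 9 members on the same axis, with bars for the 95% counting interval of 1 kilobase of mRNA; the dotted lines mark 2-fold. *tral*, *cup* and *bel* lie beyond the lower dotted line, and 0 members lie beyond the upper one.

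Differences between members are the same with and without centring on the median gene, but not when genes are centred within classes of span or of input level. From highest to lowest the order was *exu*, *Atx2*, *Patr-1*, *me31B*, *Edc3*, *yps*, *bel*, *cup* and *tral*. *exu* and *tral* stood 2.09 apart on the log2 scale, a 4.26-fold difference in occupancy. Of the 36 pairs of members, 10 had overlapping counting intervals, each drawn for 1 kilobase of mRNA. An mRNA longer than 1 kilobase has more reads and a narrower interval, and transcript length was not used. The number of overlaps therefore depends on this choice. *Atx2* overlapped with *exu*, *Patr-1*, *me31B*, *Edc3* and *yps*, and *Patr-1*, *me31B* and *Edc3* overlapped with each other. The other overlaps were those of *cup* with *bel* and with *tral*. The intervals of *yps* and *bel*, in contrast, did not meet, so that on this scale *bel*, *cup* and *tral* lay below the other 6 by more than counting error. This separation ended within span classes, where *yps* stood at −0.75 and *bel* at −0.77. *Edc3* passed *me31B* there, at 0.10 against −0.18, and within classes of input level *Atx2* passed *exu*, at 0.25 against 0.21. The *bel*, *cup* and *tral* mRNAs had 1.98-, 2.31- and 2.76-fold lower occupancies than *me31B*.

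The 9 genes lie on 4 chromosome arms (Release 6 coordinates). *me31B* is at 2L, 10239341 to 10242172, on the arm that also holds *cup*, and *exu* is at 2R, 20667427 to 20671083. On 3L lie *tral* at 12515059 to 12520954, *Edc3* at 17525333 to 17529861 and *yps* at 12121274 to 12125150. On 3R lie *Patr-1* at 17043564 to 17048421, *bel* at 8654975 to 8660761 and *Atx2* at 15408423 to 15417277. No 2 members overlap each other. RefSeq lists 9 transcripts for *tral*, 4 for *exu* and between 1 and 3 for each of the others. Their genomic spans, which include introns, run from 2832 bases for *me31B* to 11117 bases for *cup*. The median occupancy of protein-coding genes went from 0.57 for spans under 1000 bases to −0.62 for spans of 16000 bases or more, so the members were also placed among protein-coding genes of like span. The Spearman rho between span and occupancy over the 9 members was −0.45, as a description of genes that share both libraries. That with input FPKM was −0.05.

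Among the 1164 genes with spans of 4000 to 8000 bases, the median occupancy was −0.44. Relative to it, *tral* stood at −1.25 and *bel* at −0.77, with 7.65% and 19.1% of this class lower, while *Edc3* was at 0.10 and *Patr-1* at 0.27. The 563 genes of 8000 to 16000 bases had a median of −0.42. *cup* stood at −1.01 relative to that median, with 17.8% of the class lower, and *Atx2* was at 0.42 relative to it. In the class of 2000 to 4000 bases, with 1829 genes and a median of −0.05, *exu* was at 0.45, *me31B* at −0.18 and *yps* at −0.75. On this scale 2 members, *tral* and *cup*, lay 2-fold or more low, as did 12.0% of the 6834 genes with a known span, and 4 lay above their class median. None of the 9 lay 2-fold or more high, as did 7.58% of those genes. Transcript length was not used, and its part in these values was not tested.

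**Figure D3:**
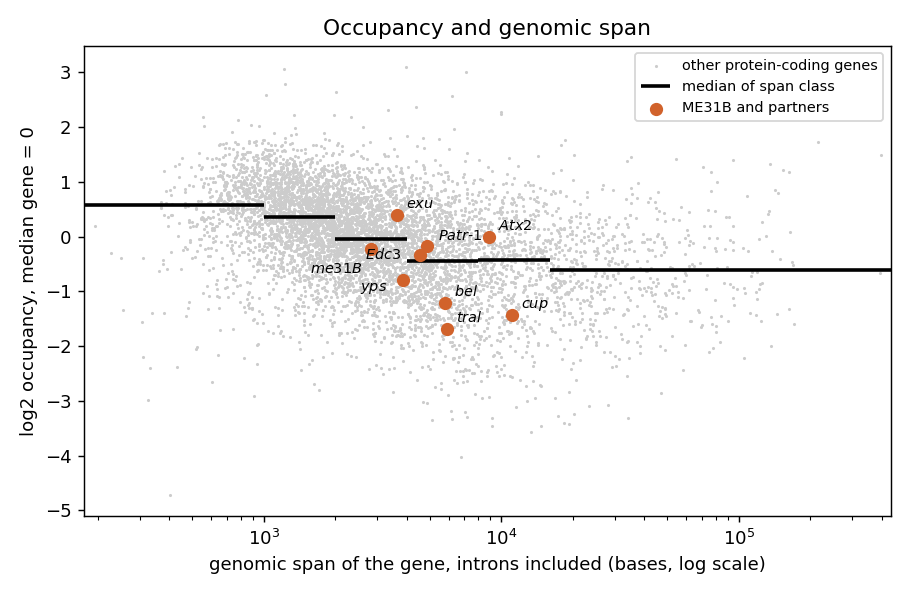
Log2 occupancy relative to the median gene against genomic span (bases, log scale) for protein-coding genes (grey) and the 9 members (orange); black lines are the medians of the span classes. *exu*, *Atx2*, *Patr-1* and, narrowly, *Edc3* lie above the line of their class, and *tral*, *cup*, *bel*, *yps* and *me31B* lie below theirs.

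Genes of the same protein families were listed to set the members beside their relatives. For comparison with each list, 15.2% of all genes lay 2-fold or more below the median gene and 9.48% lay 2-fold or more above it. Of 29 other DEAD-box helicase genes found, 28 were above 0.5 FPKM in both libraries, with 6 lying 2-fold or more below the median gene and 1 lying 2-fold or more above it. The list median was −0.45, and −0.12 on the uncentred scale. The lowest was *CG6227*, the fly counterpart of the yeast splicing helicase gene PRP5, at −1.82 (19.4 FPKM in input RNA, 6.95 FPKM after immunoprecipitation). The highest was *eIF4AIII*, a helicase of the exon junction complex, at 1.09, whose span overlaps *Coq2*. Between these extremes, *me31B* at −0.23 lay above the list median and *bel* at −1.21 below it. Within span classes the list median was −0.15, and *me31B*, at −0.18, lay slightly below it.

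TRAL, Edc3 and Atx2 contain LSm or LSm-like domains, and the canonical Sm and LSm genes encode the small ring proteins of splicing and decay. Of these 16 genes, 3 lay 2-fold or more above the median gene and 0 lay 2-fold or more below it, with a list median of 0.38 that became −0.14 when each gene was set against its own span class. *LSm-4* was the highest at 2.63 and *LSm3* the lowest at −0.10. The span of *LSm-4* overlaps *CG17768* and *Cnot4*. *tral* and *Edc3* lay below the whole range of this list, and *Atx2*, at −0.01, within it. However, the counting interval of *Edc3* (−0.62 to −0.07) included the value of *LSm3*. That of *Atx2* (−0.68 to 0.68) reached below the list, so only *tral* lay apart from it by more than counting error. Within span classes *tral*, at −1.25, was still below the lowest gene of the list, *LSm3* at −0.67, whereas *Edc3*, at 0.10, was above the list median.

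Among the 8 genes for decapping and 5′ decay, 2 lay 2-fold or more below the median gene and 1 lay 2-fold or more above it, and the list median was −0.01, or 0.32 on the uncentred scale. This list shares its 4 LSm genes with the one before. *pcm*, which encodes the 5′ to 3′ exonuclease Pacman, was the lowest at −2.22, with 19.9 FPKM in input RNA and 5.39 FPKM after immunoprecipitation. *LSm-4* was again the highest. *Edc3* and *Patr-1* lay between these values. Within span classes the list median was −0.26, with 1 gene 2-fold or more low and 1 gene 2-fold or more high. *Edc3*, at 0.10, and *Patr-1*, at 0.27, lay above that median.

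Cup acts at the cap, and of 11 genes for cap- and poly(A)-binding proteins and their partners 6 passed the expression limit. At least 2-fold above the median gene were 2 of them, and 0 were 2-fold below. *Thor*, which encodes the eIF4E-binding protein 4E-BP, was the highest at 1.64 but had only 1.31 FPKM in the input. *eIF-4E*, which encodes the protein that Cup binds, stood at 1.17, with 356 FPKM in input RNA and 1013 FPKM after immunoprecipitation. *eIF4G2* was the lowest at −0.83, and *pAbp*, the gene of the poly(A)-binding protein, was at −0.81. *eIF-4E* and *pAbp* were singled out after their values were seen. The list median was 0.31, but −0.24 with a limit of 5 FPKM and 1.22 within span classes, where 3 genes lay 2-fold or more high. The limit of 5 FPKM left out *Thor*, and *eIF4G* had no known span, so these medians do not cover the same genes. By its listed value *cup* lay below all 6, and *eIF-4E* and *cup* differed in direction relative to the median gene. Both statements carry the uncertainty of *cup*, since *CG34310*, annotated over the same span, stood at 0.96. How reads were divided between these 2 genes is not known, and its part in this contrast was not tested.

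Of 3 other genes with a cold-shock domain, *lin-28* was listed at 0 in input RNA and at 0.0896 FPKM after immunoprecipitation. *CG9705* stood at 0.12, and *Unr*, a translational regulator, at −1.25. *yps*, at −0.79, lay between them. Among 24 genes for other mRNP proteins of the oocyte, 22 passed the limit, with 3 at least 2-fold below, 0 at least 2-fold above, and a list median of −0.36 that changed to 0.08 against span classes. *enc* was the lowest at −1.69 and *mago*, a core protein of the exon junction complex, the highest at 0.97. *enc* overlaps *Rdh* and *mago* overlaps *Magi*. The members' median was −0.34, and −0.18 against span classes.

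**Figure D4:**
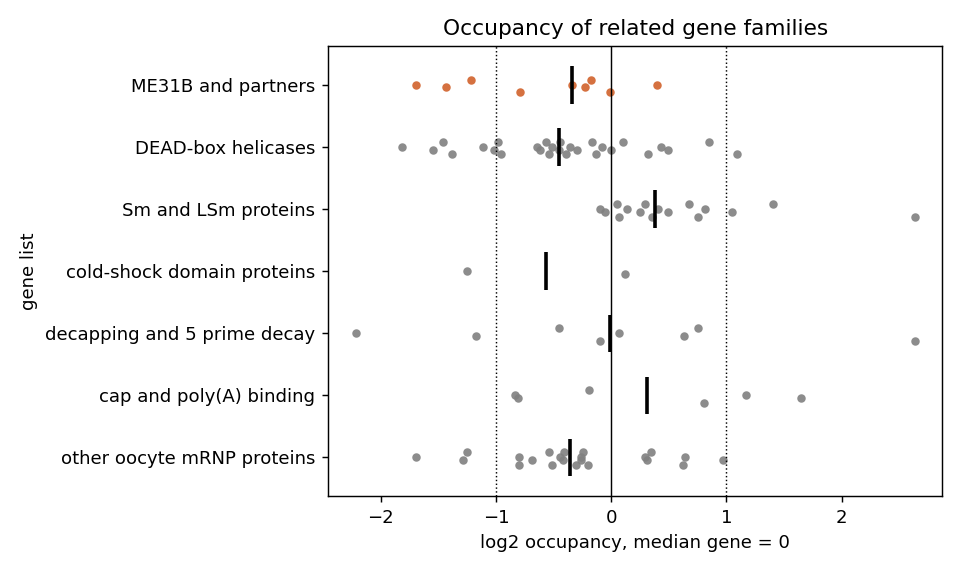
Log2 occupancy relative to the median gene for the 9 members (orange) and for genes of the related families (grey) above 0.5 FPKM in both libraries; black bars are medians and dotted lines mark 2-fold. The members reach from −1.69 to 0.40, and the Sm and LSm genes lie mostly to the right of 0.

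The genes most like *me31B*, *tral* and *cup* in these libraries were sought by distance in the plane of log2 input and log2 immunoprecipitate FPKM. With only 2 libraries, likeness here means similar abundance and similar recovery. Nearest to *me31B* were *dUTPase* at a distance of 0.15 and *COX7C*, a subunit gene of cytochrome c oxidase, at 0.20, followed by a small nucleolar RNA at 0.23. Nearest to *tral* were *Fdh* at 0.29, *Tango7*, which encodes a subunit of the initiation factor eIF3, at 0.33 and *T-cp1*, a chaperonin subunit gene, at 0.35. Those of *cup* were *rig* at 0.09, *Galphaq* at 0.10 and *Arp6* at 0.10. *Fdh*, with 442 FPKM in input RNA, nearly equal to *tral*, had 211 FPKM after immunoprecipitation.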

How the data were processed

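RNA of 1 input and 1 immunoprecipitate library of stage 14 oocytes was sequenced as single-end reads. Trimmed reads were aligned by the authors using STAR 2.5.2a, with dm6 as the build, and the deposited values are gene-level FPKM from Cufflinks 2.2.1. No annotation release or strand setting is stated in the sources used here.

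Occupancy was the immunoprecipitate FPKM over the input FPKM for the 6886 of 16863 genes above 0.5 FPKM in both libraries, as log2 without a pseudocount, centred on the median gene. Genes were counted by a 2-fold rule. Names, spans and overlaps come from the RefSeq table of Release 6, which matched 6834 of these genes. The members were chosen by name and not by their values. Members, lists and alternatives were all set with earlier results of these data known. Named genes are the members, the highest and lowest gene of each list among those with at least 1 FPKM in the input, and the 3 genes nearest to *me31B*, *tral* and *cup*. Genes that overlap them, *eIF-4E* and *pAbp* were added after their values were seen. The value of 1 read was the mode of FPKM times span for genes of 500 to 3000 bases below 0.6 FPKM, and the read numbers from it limit the precision of scarce mRNAs most. Alternatives changed the filter, the pseudocount, the centring and the threshold. Protein features were not analysed here. Python 3.11.15, pandas 2.3.3 and scipy 1.17.1 were used. The calculation was tested on simulated data in which transcript length was taken from genomic span. The use of span in place of transcript length was therefore not tested.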

Additional observations from a re-analysis of the deposited data

How the results depend on the processing

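A total of 11 alternative scalings and filters was tried, of which centring within 5 classes of input FPKM and centring on non-overlapping protein-coding genes were chosen after the data were seen. Centring within classes of protein length was not run, since protein lengths were not used here. No paired analysis was possible because there is a single input and a single immunoprecipitate, which also means that no replicate could be left out. *tral* stayed at least 2-fold low in all 11 (−1.88 to −1.25). *cup* did so too (−1.67 to −1.01), but narrowly in some of them. It stood at −1.01 within span classes, −1.09 without a filter and with pseudocount 0.5, and −1.10 uncentred. None of the 11 changed how reads were divided between *cup* and *CG34310*, so the value of *cup* remains uncertain. *bel* passed the 2-fold rule in 7 (−1.40 to −0.77). It did not pass without centring (−0.88), with rescaled library sums (−0.96), without a filter and with pseudocount 0.5 (−0.87), or within span classes (−0.77). Values with rescaled sums were not centred either. Without a filter, 7110 genes at 0 in both libraries entered, and member values were close to the uncentred ones. Span classes apart, these settings are therefore not separate checks. *me31B* ranged from −0.41 to 0.11, *exu* from 0.21 to 0.73, *yps* from −0.98 to −0.46, *Patr-1* from −0.22 to 0.27 and *Edc3* from −0.39 to 0.10. *Atx2* ranged from −0.05 to 0.42, and a limit of 5 FPKM left it out. With a 3-fold threshold 1 member, *tral*, was low. Over all genes, 653 were above and 1048 below. Without a filter and with pseudocount 0.5 the counts were 1461 and 662, close to the uncentred 1395 and 630. Uncentred, 68.9% of called genes were above, against 38.4%. With rescaled sums 1199 were above (62.7%). At 1.5-fold the counts were 1639 and 1808, and at 3-fold 123 and 410. Depth limits *Atx2* most.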
